A study of Mus musculus with 20 samples.

Results

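Bipolar cells are the interneurons that carry signals from rods and cones to the inner retina, and they are among the last neurons the retina makes. In this series 4530 of 79009 cells carried the submitters' annotation as bipolar cells, and these 4530 cells, chosen by that annotation column alone, are described here. Of them, 4392 came from the 33756 cells labelled postnatal day 5 (P5) and 138 from the 45253 cells labelled postnatal day 2 (P2). The cells came from explanted retinas of wild-type CD1 mice that were electroporated with a plasmid, sorted for green fluorescent protein (GFP) and profiled by droplet single-cell RNA sequencing with unique molecular identifiers (UMIs). The 20 libraries comprised, at each age, 4 libraries of a GFP control construct, 2 libraries of a MEIS1 construct, 2 of a MEIS2 construct and 2 of a 50:50 combination of both. MEIS1 and MEIS2 are homeodomain transcription factors of the TALE class that bind DNA together with PBX proteins.

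The labels disagree on the constructs: the sample labels give MEIS1 and MEIS2, but NR2F1 and NR2F2, in the plasmid pCAGIG, are the factors given in the text on the design. In progenitors of the P5 libraries, Meis1 lay at 3137 and 3750 CPM (UMI counts scaled to a common library total) in the libraries labelled MEIS1 against 184 to 207 CPM in the controls, and Meis2 lay at 848 and 971 CPM in the libraries labelled MEIS2 against 34.6 to 50.1 CPM in the controls. The labels are used below as given. All cells in the table held at least 1 GFP UMI, which free RNA can also supply, and the share fell to 87.6% of P5 bipolar cells once each was thinned to 2000 UMIs. The labels do not say whether libraries of one group came from separate animals or cultures, so p-values measure only the spread between these libraries, which may be technical. The P5 libraries held 1943 to 6292 cells each, and their bipolar cells had a median of 6941 to 16477 UMIs per cell. The submitters' processed cell names of the library labelled P2 control 1 begin with the combination's name, and those of the library labelled P2 combination 2 begin with the control's name.

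Bipolar cells fall into ON types, which depolarise to light, and OFF types, which hyperpolarise. ON types sense glutamate from photoreceptors through the metabotropic receptor mGluR6, encoded by Grm6, which acts through the G protein Gαo to close the cation channel TRPM1. OFF types sense the same glutamate through ionotropic AMPA and kainate receptors, of which Grik1 encodes a kainate subunit. The homeodomain factor OTX2 is shared with photoreceptors, VSX1 acts in cone bipolar types, and ISL1 marks ON types.

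The annotation was first checked against the 6 markers Vsx1, Grm6, Trpm1, Cabp5, Pcp2 and Otx2. In 9 of the 10 P5 libraries all 6 were detected in the annotated cells. The exception was the library labelled P5 combination 1, whose 53 annotated cells held 734108 UMIs and none of Vsx1, Grm6 or Trpm1, which allows up to 4.09 CPM of each. Those 53 cells had Otx2 at 1547 CPM, the proneural genes Neurod4 at 1880 CPM and Neurod1 at 1873 CPM, and Isl1 at 38.1 CPM, and they are called the annotated cells of that library below. The 138 annotated cells of P2, with 1141779 UMIs in all, held 0 UMIs of Vsx1, Grm6 and Trpm1 in all 10 libraries, which allows up to 2.63 CPM of each. At P2 the annotated cells had Otx2 at 1099 CPM, Neurod4 at 1033 CPM, and Crx, a photoreceptor and bipolar factor, at 418 CPM. The label at P2 and in P5 combination 1 thus went against 3 of the 6 markers, and results that include those cells are given with and without them where that is possible.

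Whole profiles ran the same way only in part. Across 6207 genes, which are not independent replicates, the log2 profile of the P2 control cells annotated as bipolar correlated at 0.905 with P2 control rods, at 0.897 with P2 control neurogenic cells, and at 0.809 with P5 control bipolar cells. The annotated cells of P5 combination 1 correlated at 0.845 with P5 control bipolar cells and at 0.895 with the P2 control cells annotated as bipolar. They correlated at 0.896 with P2 control rods, 0.885 with P2 control neurogenic cells, 0.888 with bipolar cells of P5 combination 2 and 0.806 with P5 control rods. Bipolar cells of P5 combination 2 correlated at 0.968 with P5 control bipolar cells. Seen from P5 control bipolar cells, the 0.809 with the P2 control cells annotated as bipolar lay above the values for other control types. The nearest of those were 0.800 with P2 control amacrine cells and 0.799 with P5 control neurogenic cells. Seen from the P2 control cells annotated as bipolar, it lay below 0.839 with P5 control neurogenic cells. There it also lay below 0.837 with P2 control amacrine cells and 0.811 with P5 control rods. Other control types correlated with themselves across the ages at 0.931 (rods), 0.927 (neurogenic cells), 0.945 (amacrine cells) and 0.912 (progenitors).

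Identity was described at P5 from counts summed over the cells of each type in each library. Cells had received their type from their own expression, so levels against the other types carry no test. Leaving out P5 combination 1, Grm6 averaged 511 ± 153 CPM in bipolar cells (SD, n = 9 libraries), with its lowest library at 227 CPM, whereas the next type, neurogenic cells, averaged 4.05 CPM. Vsx1 averaged 138 ± 54.0 CPM (n = 9) against 1.42 CPM in cones, the next type. Trpm1 averaged 146 ± 87.0 CPM (n = 9) and ranged from 23.7 to 326 CPM, and the next type was Müller glia at 11.9 CPM. Cabp5, a calcium-binding protein of bipolar terminals, averaged 164 ± 69.6 CPM against 22.3 CPM in neurogenic cells. These 4 markers therefore lay at least 2 times above every other type.

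Pcp2 and Otx2 were shared more widely. Pcp2, which encodes a regulator of Gαo found in rod bipolar and some ON cone bipolar cells, averaged 216 ± 159 CPM in bipolar cells and 126.1 CPM in rods. Otx2 averaged 948 ± 260 CPM in bipolar cells, 830 CPM in rods and 759 CPM in neurogenic cells. After each cell was thinned to 2000 UMIs, Grm6 had a UMI in 50.4% of P5 bipolar cells, 0.322% of rods and 0.780% of neurogenic cells, and Vsx1 in 17.0%, 0.101% and 0.0807% of the same types. Pcp2 had a UMI in 17.5% of bipolar cells and in 17.5% of rods, so the share of cells with a Pcp2 UMI did not set bipolar cells apart from rods at this depth. Otx2 had a UMI in 78.7% of bipolar cells, 71.5% of rods and 62.5% of neurogenic cells. Median depths over both ages before thinning were 11892.5 UMIs per bipolar cell, 4650.5 per rod and 10523 per neurogenic cell.

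**Figure D1:**
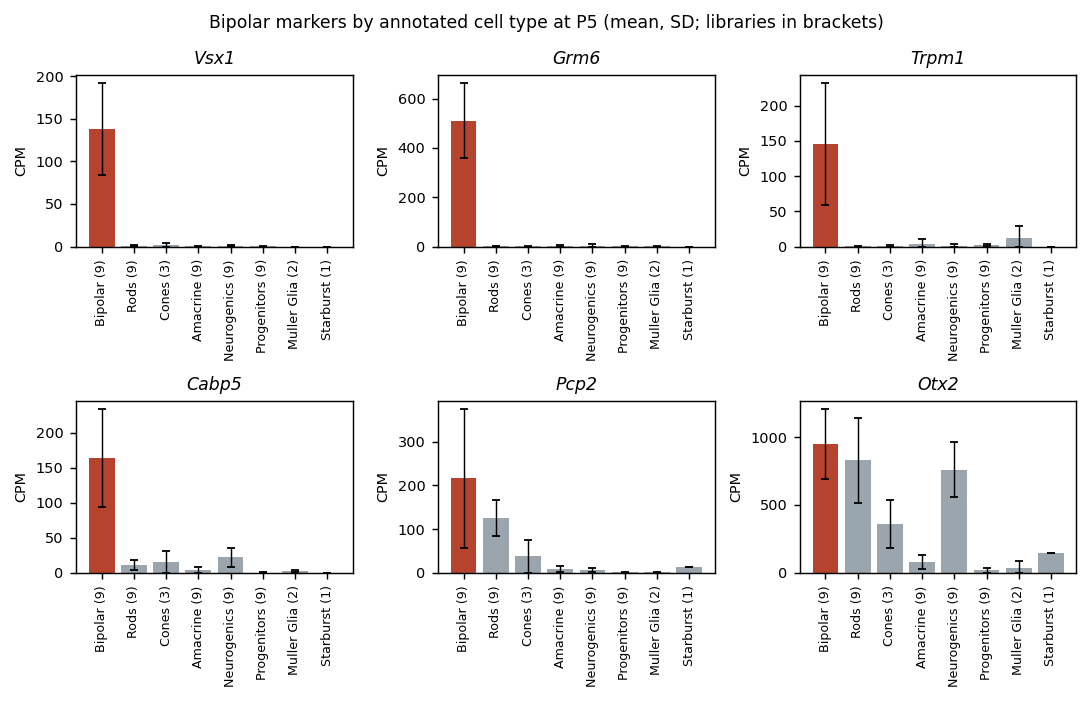
Levels of the 6 bipolar markers in the annotated cell types at P5, in CPM of summed counts, with the library labelled P5 combination 1 left out; bars are means over libraries, whiskers are SD over libraries with lower ends stopped at 0, and the number in brackets after each type is its number of libraries. Vsx1, Grm6, Trpm1 and Cabp5 stand above every other type, whereas rods reach 126.1 CPM of Pcp2 and 830 CPM of Otx2 against 216 and 948 CPM in bipolar cells.

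The genes behind the 5 markers other than Otx2 lie on 4 chromosomes in the mouse assembly mm10, given here as the GENCODE annotation has them: Grm6 on chromosome 11 (50850685 to 50866208, plus strand), Trpm1 on chromosome 7 (64153835 to 64269775, plus strand), Cabp5 on chromosome 7 (13398132 to 13408887, plus strand), Vsx1 on chromosome 2 (150680702 to 150689360, minus strand) and Pcp2 on chromosome 8 (3623371 to 3625545, minus strand). Their promoters are shown because these 5 markers were used to check the annotation and were called higher at P5 than at P2 in the comparison given further on. Each window runs from 250 bases before to 50 bases after the start of a RefSeq transcript on GRCm38.p6, read 5′ to 3′ along the gene, and RefSeq and GENCODE starts can differ. Where a gene has several starts in the table the most upstream one is shown, which applies to Trpm1, with 2 starts, and Pcp2, with 4. Capitals mark TAATCC, the letters bound by K50 homeodomain factors such as OTX2 and CRX, and TGACAG, the letters of the MEIS core, searched on both strands. The windows are Grm6 at chr11:50850435-50850734 (plus), Trpm1 at chr7:64153585-64153884 (plus), Pcp2 at chr8:3625498-3625797 (minus), Vsx1 at chr2:150689088-150689387 (minus) and Cabp5 at chr7:13397905-13398204 (plus).
Grm6: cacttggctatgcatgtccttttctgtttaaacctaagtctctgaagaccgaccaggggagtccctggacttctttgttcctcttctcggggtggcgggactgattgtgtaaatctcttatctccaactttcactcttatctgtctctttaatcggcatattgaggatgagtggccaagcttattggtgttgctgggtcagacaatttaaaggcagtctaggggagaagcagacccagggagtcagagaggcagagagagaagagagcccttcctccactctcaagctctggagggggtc
Trpm1: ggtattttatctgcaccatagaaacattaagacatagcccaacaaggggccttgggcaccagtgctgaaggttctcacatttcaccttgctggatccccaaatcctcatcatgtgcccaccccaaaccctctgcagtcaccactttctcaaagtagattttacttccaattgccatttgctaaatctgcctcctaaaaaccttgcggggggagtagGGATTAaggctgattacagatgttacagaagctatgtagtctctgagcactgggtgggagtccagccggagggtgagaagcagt
Pcp2: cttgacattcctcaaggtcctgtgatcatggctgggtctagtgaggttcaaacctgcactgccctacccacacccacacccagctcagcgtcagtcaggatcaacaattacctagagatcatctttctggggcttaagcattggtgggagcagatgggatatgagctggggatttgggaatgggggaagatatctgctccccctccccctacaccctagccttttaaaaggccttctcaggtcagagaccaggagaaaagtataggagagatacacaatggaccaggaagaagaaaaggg
Vsx1: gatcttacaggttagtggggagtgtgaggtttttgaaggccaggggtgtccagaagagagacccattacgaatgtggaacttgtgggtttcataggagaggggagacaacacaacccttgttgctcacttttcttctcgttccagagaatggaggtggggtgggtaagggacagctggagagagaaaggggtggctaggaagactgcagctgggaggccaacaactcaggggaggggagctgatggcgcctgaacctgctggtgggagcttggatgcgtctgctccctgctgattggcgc
Cabp5: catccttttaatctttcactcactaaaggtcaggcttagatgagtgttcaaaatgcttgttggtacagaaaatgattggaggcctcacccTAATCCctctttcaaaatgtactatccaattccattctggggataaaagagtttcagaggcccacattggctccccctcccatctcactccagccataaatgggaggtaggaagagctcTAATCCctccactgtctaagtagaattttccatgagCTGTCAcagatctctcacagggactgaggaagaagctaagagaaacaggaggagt
TAATCC occurred in 2 of the 5 windows, with 1 match in Trpm1 on the minus strand and 2 in Cabp5 on the plus strand, beginning 160 and 41 bases before the start. TGACAG occurred in 1 of the 5, in Cabp5 on the minus strand. Of all 32851 promoter windows in the table, 7.06% held TAATCC and 19.2% held TGACAG on either strand. A match describes letters and not binding, and the other windows merely lack these letters.

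Beyond the markers, bipolar transcription factors were the list with the most members highest in bipolar cells. Of 12115 genes at 10 CPM or more in some type, 9.52% were highest in bipolar cells and 1.08% were there at least 2 times above the next type. Of 20 bipolar transcription factors at that level, 12 were highest in bipolar cells and 6 stood at least 2 times above the next type: Vsx1, Bhlhe23, Lhx3, Prdm8, Fezf2 and Zfhx4. Isl1 averaged 796 ± 168 CPM (n = 9), Zfhx4 1126 ± 301 CPM, Bhlhe23, a factor of rod bipolar cells, 80.5 ± 22.8 CPM, and Prdm8 209 ± 29.3 CPM.

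Of 14 genes of the ON pathway at that level, 7 were highest in bipolar cells and 5 at least 2 times above the next type: Grm6, Trpm1, the Gαo gene Gnao1 (480 ± 110 CPM), the G protein γ subunit gene Gng13 (84.9 ± 62.4 CPM) and the protein kinase C α gene Prkca (912 ± 438 CPM). Gpr179, which anchors the regulators of G protein signalling at the ON dendrite, averaged 93.0 ± 30.6 CPM. Lrit3 was an exception: it averaged 0.804 CPM in bipolar cells and was highest in cones, in which its protein is also known to act on the ON cascade across the synapse. On the OFF side, 3 of 11 genes were highest in bipolar cells, led by Grik1 (949 ± 392 CPM) and the neuregulin receptor gene Erbb4 (752 ± 232 CPM). Of 18 ribbon synapse genes only Cacna2d4, a calcium channel subunit gene, was highest in bipolar cells (381 ± 50.4 CPM), and none was 2 times above the next type. Of 14 wiring genes, 4 were highest, with the cadherin genes Cdh8 (620 ± 282 CPM) and Cdh9 (145 ± 72.6 CPM) at least 2 times above the next type.

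Genes outside the lists were also among those highest in bipolar cells. Ranked by the gap between the lowest bipolar library and the highest other type, with P5 combination 1 left out, Grm6 came first. Zfp804b, near the top of the ranking, averaged 3591 ± 704 CPM against 483 CPM in the next type. It was followed by Grik1, the noncoding RNA Gm20754, Otor, Vsx1, Trnp1, Car10 and Thsd7a. Car10, which encodes a carbonic anhydrase-related protein that binds neurexins, averaged 3784 ± 916 CPM against 711 CPM in starburst amacrine cells. With P5 combination 1 included A730046J19Rik and Car10 were among the first 3, and 8 of the 20 genes were the same in both rankings.

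The balance of ON and OFF genes differed widely between P5 libraries. The sum of 8 ON genes lay at 766 to 2281 CPM in 9 libraries and at 47.7 CPM in P5 combination 1, where 8 OFF genes summed to 199 CPM. The sum of the 8 ON genes (Grm6, Trpm1, Nyx, Gpr179, Rgs11, Gng13, Isl1 and Lrit3) over the sum of the 8 OFF genes (Grik1, Tacr3, Neto1, Fezf2, Pcdh17, Pcdh10, Erbb4 and Chrm2) gave a log2 ratio of 1.10, 0.72, -0.95 and -0.19 in controls 1 to 4. It was 0.37 and 0.10 in the MEIS1 libraries, -0.43 and -0.86 in the MEIS2 libraries and -2.04 and -1.83 in the combination libraries. The controls alone therefore covered most of the range, and only the combination libraries lay outside it. Isl1 and Grm6 were the most abundant of the ON genes and Grik1 and Erbb4 of the OFF genes in 9 of these 10 libraries, P5 combination 1 being the exception with Grm6 at 0, while Nyx, which encodes an adhesion protein of the ON dendrite, stood at 7.39 ± 1.95 CPM (n = 9).

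Within cells the ON receptor and the OFF receptor were partly separated. Among 4297 P5 bipolar cells thinned to 2000 UMIs, 50.4% had a UMI of Grm6, 48.4% a UMI of Grik1 and 18.9% both, where independent detection would give 24.4%. These shares pool libraries that differ in both genes, and within libraries the share with both was also below the product in each of the 9 that had Grm6, from 16.3% against 17.8% in combination 2 to 14.3% against 21.5% in control 2. Without thinning the shares were 70.6%, 63.7% and 42.2%. The highest library for Grm6 was MEIS1 2, at 65.7% of thinned cells. The lowest after P5 combination 1 (0%) was combination 2, at 24.8%, and the same library had Grik1 in 72.0% of cells.

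Clustering of 4350 P5 cells annotated as bipolar, after centring each gene within its library, gave 8 clusters. Cells were clustered on their own expression, so genes that define a cluster are listed as descriptions. Cluster 7 (389 cells) carried the rod bipolar markers and is called rod bipolar-like: Prkca at 3519 CPM, Pcp2 at 1255 CPM, Vstm2b at 269 CPM, Car8 at 167 CPM and Sebox at 33.5 CPM, with Grm6 at 935 CPM and Grik1 at 74.2 CPM.

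The other 7 clusters are called by number, with their leading genes. Cluster 5 (477 cells) was led by Nfib, Kcnd3 and Nnat and had the highest levels of the OFF cone bipolar markers Grik1, at 3002 CPM, and Fezf2, at 241 CPM, with Grm6 at 23.2 CPM. Erbb4, another marker on that list, stood there at 257 CPM against 2005 CPM in cluster 1, and cluster 5 stays unnamed. Cluster 1 (793 cells) was led by Cdh18 and Slit2 and had Vsx1 at 408 CPM, Grik1 at 1135 CPM and Grm6 at 594 CPM. Cluster 6 (409 cells) was led by Lrp1b and Unc5d and had Grm6 at 871 CPM, Trpm1 at 536 CPM, Vsx1 at 488 CPM and Grik1 at 73.5 CPM. Cluster 2 (781 cells) was led by Prkca, at 1751 CPM. It was second to cluster 7 in Prkca, Pcp2 (332 CPM), Cabp5 (274 CPM), Vstm2b (66.8 CPM), Car8 (39.4 CPM) and Sebox (17.3 CPM). Its Grik1 stood at 679 CPM. Cluster 4 (547 cells) was led by Ptprz1 and P3h2. Cluster 3 (702 cells) was led by Fabp7, Grik1 and Sox4, and 43.6% of it came from control 3. Cluster 8 (252 cells) held the rod genes Rp1 at 738 CPM, Sag at 1216 CPM and Pdc, and 29.0% of its cells were scored as doublets, so it stays unnamed. Grm6 and Grik1 thus parted most cleanly in clusters 5, 6 and 7 and were both present in clusters 1 to 4.

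Clusters were unevenly spread over libraries. Cluster 3 held 88.7% of the clustered cells of P5 combination 1, 31.8% of control 3 and 29.3% of combination 2, and 4.39% to 14.0% of the other 7 libraries. The rod bipolar-like cluster 7 held 17.3% of control 2, 7.47% of control 1, 6.51% of control 4 and 1.45% of control 3. It held 14.2% and 12.5% of the MEIS1 libraries, 7.85% and 11.5% of the MEIS2 libraries, and 0% and 0.407% of the combination libraries. Cluster 2, next in rod bipolar markers, held 15.9% to 20.9% of the controls, 1.89% of P5 combination 1 and 12.2% of combination 2. Cluster 5 held 8.21% to 12.6% of the controls, and 1.89% (1 of 53 cells) of P5 combination 1 and 20.3% of combination 2. Centring takes each library's own mean from each gene, so cells alike within a library fall near the middle whatever their type. The share of P5 combination 1 in cluster 3 therefore does not show likeness to the cells of other libraries there. Cluster 3 as a whole had Grm6 at 333 CPM, and P5 combination 1 had none. Cluster 3 was the largest cluster of control 3, the control with the lowest ratio of ON to OFF genes. Control 3 had the lowest depth as well, a median of 6941 UMIs per bipolar cell. The part of depth in these shares was not tested. At other settings the same cells gave 5 or 14 clusters, or 10 without centring by library. The adjusted Rand index of the clusters without centring against those reported was 0.363. The number of clusters is therefore not a count of bipolar types.

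**Figure D2:**
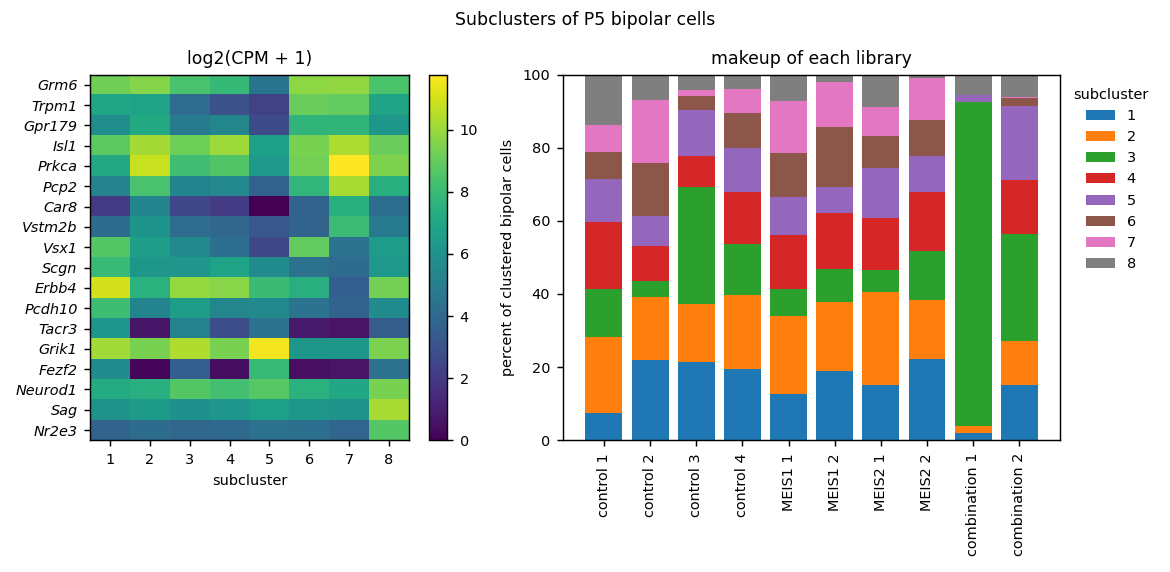
The left panel shows the level of named genes in each of the 8 clusters of P5 cells annotated as bipolar, as log2(CPM + 1) in colour. The right panel shows the share of each P5 library's clustered cells in each cluster, in percent. Cluster 3 takes most of P5 combination 1 after centring within libraries, which does not show likeness to other libraries. Cluster 7, the rod bipolar-like cluster, is rarest in both combination libraries and in control 3. Cluster 2, next highest in Prkca and Pcp2, holds 12.2% of combination 2 and 15.9% of control 3.

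The comparison of P5 with P2 in control libraries asked how the annotated bipolar cells differ between the ages. Only 1 P2 control reached the minimum of 20 cells set for the test, so the test used P2 controls 1, 2 and 4 with 44, 18 and 10 cells and 522885 UMIs in all, a minimum of 10 cells that was planned as an alternative and taken up once the cell numbers were known. A gene at 0 in all 3 can lie no higher than 5.74 CPM (3 counts over their total, of which P2 control 1 supplied most), and folds against such genes are lower bounds. Scrublet scored 21 of the 44 cells of P2 control 1 as doublets.

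Grm6, Trpm1 and Vsx1 were not detected in the P2 controls and were present in every P5 control. Grm6 stood at 407, 728, 448 and 522 CPM in P5 controls 1 to 4 and at 0 UMIs in all 3 P2 controls, at least 91.8-fold higher. Trpm1, at 131, 326, 58.3 and 159 CPM in the P5 controls, was at least 29.4-fold higher, and Vsx1, at 125, 231, 152 and 154 CPM, at least 28.9-fold higher. Without P2 control 1 the limit was 26.4 CPM over 113475 UMIs, and the bounds were 19.9-fold for Grm6, 6.38-fold for Trpm1 and 6.26-fold for Vsx1. Every P5 control lay above every P2 control for these 3 genes, as for 19.5% of all genes tested. Otx2 was 937 ± 262 CPM at P5 (n = 4) and 1290 ± 507 CPM at P2 (n = 3), with a log2 fold change of -0.14 ± 0.30 (SE, adjusted p = 0.829 by edgeR's quasi-likelihood test), so it did not pass the test. Cabp5 rose by 3.97 ± 0.70 and Pcp2 by 5.72 ± 1.26 on the log2 scale (adjusted p 0.00407 and 0.0125).

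Across 14149 genes tested, 8.11% were called at an adjusted p under 0.05, 731 higher at P5 (5.17%) and 416 lower (2.94%). DESeq2 on the same libraries called 693 higher and 701 lower, so the excess of rises was not seen there, and the median log2 change of all genes was 0.24 by edgeR and -0.011 by DESeq2. Among the 6 lists of bipolar and MEIS genes the largest share of rises was in the ON pathway, of which 9 of 15 tested genes were higher and 1 was lower, with a median log2 difference of 2.22 against 0.03 over all genes, where genes at 0 in the P2 controls enter at their bound. The 9 were Grm6, Trpm1, Gpr179, Gnb5, Gnao1, Gnb3, Gng13, Pcp2 and Prkca, which include the receptor, channel, scaffold, G protein subunits and kinase. A joint change was not tested, and the calls of Grm6 and Trpm1 were lost without P2 control 1, as given below. Gnb3, the cone and ON bipolar β subunit gene, was already at 282 ± 79.0 CPM at P2 and reached 880 ± 73.8 CPM at P5. Gnao1 went from 50.3 ± 42.1 to 484 ± 112 CPM. The 1 lower gene was Lrit3, at 10.7 ± 9.33 CPM at P2 and 0.841 ± 0.607 CPM at P5. Over all 10 P2 libraries Lrit3 had 11 UMIs, so its P2 level rests on few counts.

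Of 21 bipolar transcription factors, 8 were higher and 4 lower at P5, with a median of 1.42. Those higher included Vsx1, Bhlhe23, Isl1, Lhx4, Prdm8, St18 and Zfhx4. Isl1 had 3 UMIs in the P2 controls and 828 ± 129 CPM at P5. Those lower included Neurod4, Neurod1 and Prdm1, which act in newly made neurons and photoreceptor precursors. Neurod4 stood at 953, 1422 and 3941 CPM in the P2 controls and at 566 ± 78.8 CPM at P5, a log2 change of -1.49 ± 0.42 (adjusted p = 0.0412). Prdm1, which encodes a repressor of bipolar genes in photoreceptor precursors, fell from 512 ± 195 to 44.0 ± 40.3 CPM. The newly made bipolar markers had 3 of 8 lower, among them Neurod4 and Atoh7, and none higher.

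On the OFF side 4 of 12 genes were higher and none lower, with a median of 1.28: Grik1, Erbb4, Gria2 and Prkar2b. Grik1 rose from 25.9 ± 16.1 CPM (n = 3) to 881 ± 489 CPM (n = 4), a log2 change of 6.14 ± 1.14 (adjusted p = 0.00505). Of 14 wiring genes, Cdh8, Cdh9, Dscaml1 and Nrxn3 were higher and Plxna2 lower. Nrxn3, which encodes a presynaptic adhesion protein, rose from 4514 ± 2185 to 11571 ± 584 CPM. Of 18 ribbon synapse genes, Cplx3, Cacna2d4, Stx3 and Unc13b were higher, with a median of 0.50, and none was lower.

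The 10 rises taken by the rule for named genes, which goes by fitted fold changes, were all at 0 in the 3 P2 controls, so that their folds are lower bounds and give no order against genes with counts at P2, such as Isl1 and Grik1. They were Pcp4, which encodes a calmodulin regulator (918 ± 352 CPM at P5, at least 160-fold), Trnp1 (at least 110.5-fold), Grm6, the noncoding RNA C130073E24Rik (at least 59.0-fold), Trpm1, Vsx1, the calcium sensor gene Scgn (at least 22.4-fold), the GABA-A receptor subunit gene Gabrb2 (at least 22.1-fold), Sybu (at least 18.8-fold) and Otor (at least 16.7-fold). The falls taken by the same rule were in the angiopoietin gene Angpt1 (-5.87 on the log2 scale), the potassium channel gene Kcnc2 (-4.72), Dhx32 (-4.62), the zinc finger gene Rreb1 (-4.58), the Slit receptor gene Robo1 (-4.05), Arhgap28 (-3.91), Hs6st3 (-3.79), the phosphoinositide 3-kinase subunit gene Pik3r1 (-3.75), Mybl1 (-3.49) and the zinc finger gene Casz1 (-3.48). Robo1 went from 385 ± 120 CPM at P2 to 17.3 ± 4.91 CPM at P5, and Pik3r1 from 1334 ± 384 to 79.0 ± 36.7 CPM.

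Of 9 MEIS genes and partners, Meis1, Meis2 and Pbx3 were lower at P5 and none was called higher, with a median of -0.33, and 4 of the 9 had a log2 change above 0. Meis2 stood at 1446, 798 and 1559 CPM in the P2 controls and at 179, 88.8, 71.4 and 109 CPM in the P5 controls, a log2 change of -3.18 ± 0.51 (adjusted p = 0.00230). Meis1 changed by -2.27 ± 0.46 (adjusted p = 0.00840).

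Markers of other cells moved between the ages as well. In the annotated bipolar cells, the summed level of 7 amacrine markers ranged from 89.6 to 634 CPM over the 10 P2 libraries and from 21.8 to 56.4 CPM over the P5 controls, and 3 of the 7 (Tfap2a, Gad2 and Pax6) were lower at P5. The summed level of 10 rod markers ranged from 17.9 to 2132 CPM at P2, where Gnat1 was at 0 in all libraries, and from 193 to 777 CPM in the P5 controls, and none of the 8 rod markers tested was called. Of 7 progenitor markers, Vim was lower at P5, and the sum reached at most 193 CPM at P2. The summed level of 7 cone markers had a median of 630 CPM over the P2 libraries (59.97 to 1011 CPM) and 226 CPM over the P5 controls (170 to 342 CPM), and Thrb was lower at P5. The Müller glia markers Slc1a3 and Dkk3 were lower at P5, and their list of 6 summed to 108 to 1118 CPM at P2 and 119 to 420 CPM in the P5 controls. Of the horizontal cell markers, Prox1 was called higher and Onecut1 lower at P5. Prox1 had a UMI in 45.4% of thinned P5 bipolar cells and was highest in the rod bipolar-like cluster 7, at 1001 CPM. Its level here is therefore not one of horizontal cells alone. Meis1 in progenitors was 354 CPM in P2 control 1 and 164 to 172 CPM in the other P2 controls. It was 1001 CPM in progenitors of P2 combination 1 and 887 CPM in those of P2 combination 2. Meis2 in progenitors was 197 CPM in P2 control 1 and at most 124 CPM in the other P2 controls. In progenitors of P2 combinations 1 and 2 it was 671 and 913 CPM. An exchange of library labels was not tested. The part of other cells in the age differences was not tested.

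Without P2 control 1, whose cell names begin with the combination's name and which supplied most P2 UMIs, 319 genes were called (251 higher and 68 lower), and without P2 control 2 the number was 748. With P2 control 1 left out, Grm6, Trpm1 and Vsx1 had adjusted p-values of 0.114, 0.190 and 0.110 by edgeR's quasi-likelihood test and no longer passed, with their direction kept. Among the other genes named by size, C130073E24Rik, Sybu, Otor, Angpt1, Casz1 and Hs6st3 also lost their calls, with adjusted p-values from 0.06003 to 0.302, and Otor did so without P2 control 2 (0.0715), without P2 control 4 (0.0528) and without doublets (0.0560) as well.

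**Figure D3:**
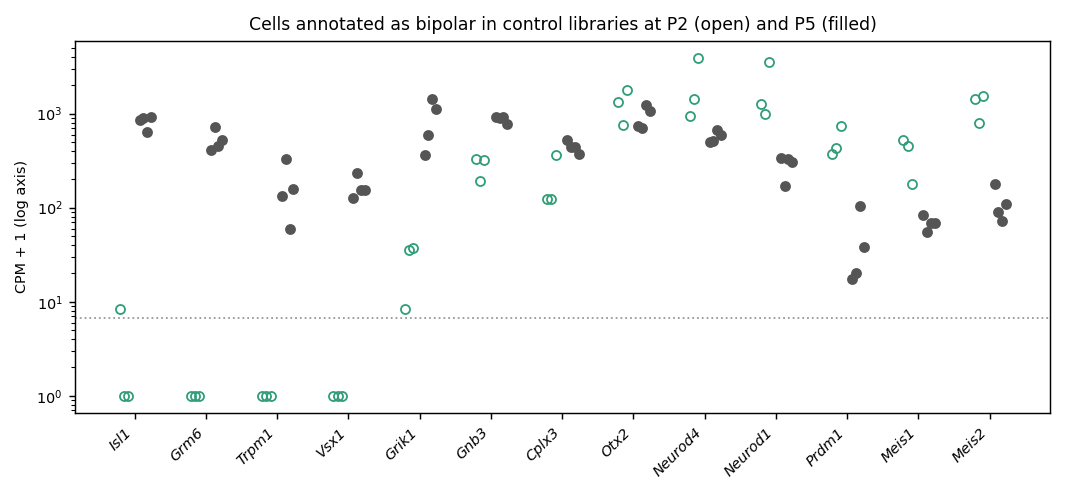
Levels of bipolar genes in the annotated bipolar cells of the 3 tested P2 controls (open points) and the 4 P5 controls (filled points), as CPM + 1 on a log axis; points are libraries and the dotted line marks the limit of 3 counts in the 3 tested P2 controls. Grm6, Trpm1 and Vsx1 are at 0 in each of these P2 controls, Otx2 overlaps between ages, and Meis2 and Neurod4 are higher at P2.

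The constructs were compared with the control at P5, where the cells annotated as bipolar made up 7.58%, 22.9%, 16.8% and 15.7% of the cells in controls 1 to 4. The share was 9.52% and 20.3% in the MEIS1 libraries, 14.0% and 22.8% in the MEIS2 libraries, and 1.18% and 9.87% in the combination libraries. The MEIS libraries averaged 12.9 ± 7.90% (n = 6) and the controls 15.7 ± 6.30% (n = 4). The difference of -2.80 percentage points lay within the spread of the libraries (two-sided exact permutation test, p = 0.562). Without P5 combination 1 the difference was -0.45 points. For the combination alone the difference was -10.2 points (exact permutation p = 0.267 over 15 splits, adjusted p = 0.800 over the 3 constructs). Controls 2, 3 and 4 exceeded both combination libraries, and control 1 lay between them. In each group the library numbered 1 had a lower share than the library numbered 2. Each combination library lay below the control of the same number. In the annotated cells the median mitochondrial share was 7.08% to 8.42% in the P5 libraries numbered 1 and 3.45% to 5.17% in the others. The permutation tests took no account of these numbers, and the part of any batch in the shares was not tested.

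The construct genes were measurable within the cells annotated as bipolar themselves. Meis1 stood at 83.2, 53.7, 67.5 and 67.6 CPM in the controls, 946 and 991 CPM in the MEIS1 libraries, 111 and 76.2 CPM in the MEIS2 libraries and 1467 and 309 CPM in the combination libraries. Meis2 stood at 71.4 to 179 CPM in the controls, at 543 and 567 CPM in the MEIS2 libraries and at 2855 and 486 CPM in the combination libraries. Each construct's own gene lay above all controls in each of its libraries. GFP was spread from 3969 to 16823 CPM in the controls and from 1457 to 9627 CPM in the MEIS libraries (exact permutation p = 0.0571, and 0.0238 without P5 combination 1).

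Across 14747 genes tested, 1 gene was called for any MEIS construct against control by edgeR's quasi-likelihood test, 0.00678% of those tested. It was Pknox1, which encodes a TALE homeodomain protein that, like MEIS proteins, binds PBX partners. Pknox1 stood at 29.3, 28.7, 34.7 and 37.5 CPM in the controls, 57.3 and 51.3 CPM in the MEIS1 libraries, 83.1 and 80.5 CPM in the MEIS2 libraries and 83.1 and 72.1 CPM in the combination libraries. All 6 MEIS libraries lay above all 4 controls, with a log2 fold change of 1.10 ± 0.12 (SE, adjusted p = 0.0481). Of 14747 genes, 0.285% had all MEIS libraries above all controls. The call was lost in 9 of the 10 fits that left out 1 library, P5 combination 1 included (adjusted p = 0.0506), and kept in the 1 fit without combination 2, with adjusted p-values from 0.00805 to 0.367 over the 10. It was also lost in 7 of 12 other alternatives, and the direction was kept in all of these.

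For MEIS2 alone, 2 genes were called, 0.0136% of those tested. Pknox1 was among them, with a log2 fold change of 1.32 (adjusted p = 0.0315). That call was lost in all 6 fits that left out 1 library, with adjusted p-values from 0.0832 to 0.649, and in 7 of 12 other alternatives, with the direction kept. For MEIS1, 0 genes were called by edgeR (0% of those tested), with 237 at an unadjusted p under 0.05 and 1 called by DESeq2. Meis1 itself had a log2 fold change of 3.85 and an adjusted p of 0.0808 there. For the combination, 0 genes were called by edgeR in the main fit (0%), with 1686 at an unadjusted p under 0.05. DESeq2 called 252. By edgeR, 174 were called without the filter on low counts and 175 with replicate numbers as a block among P5 libraries. The count by edgeR was 680 without combination 2, when P5 combination 1 stands alone for the construct, and 37 without control 3.

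**Figure D4:**
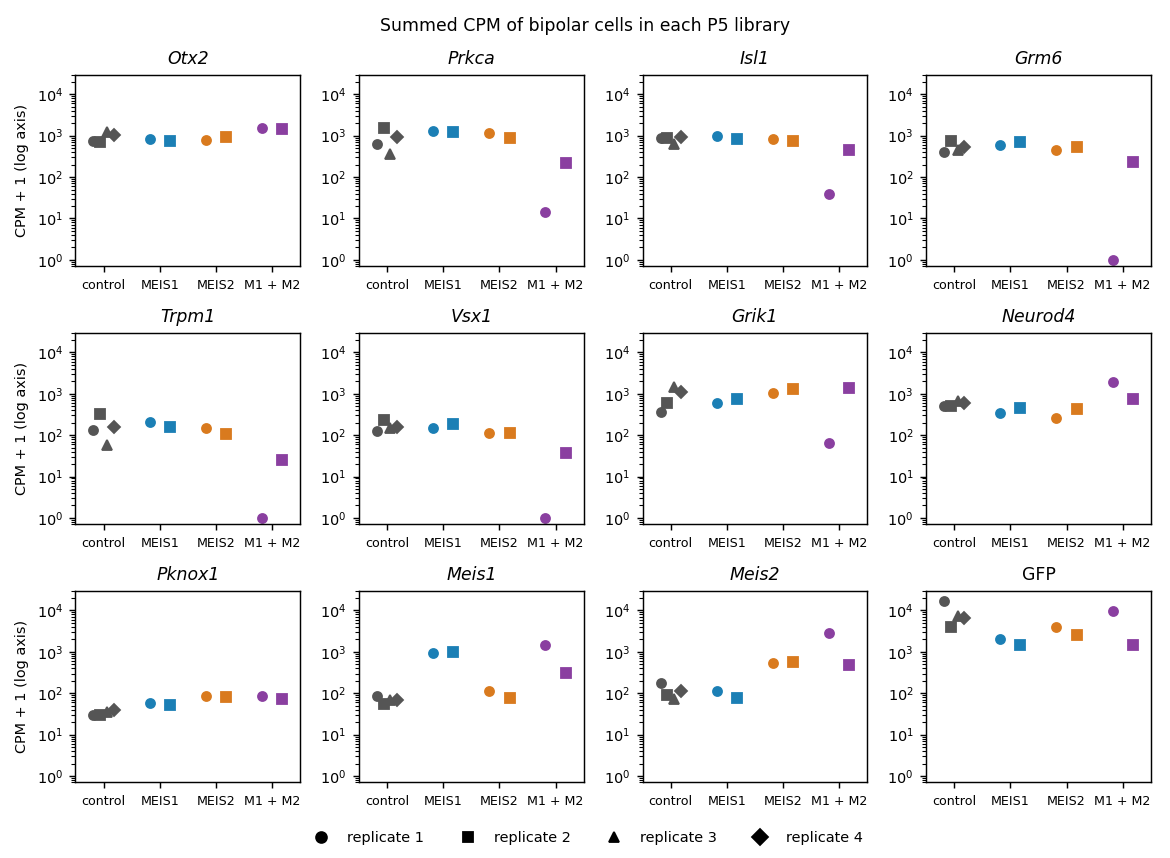
Levels in the cells annotated as bipolar of each P5 library, as CPM + 1 on a log axis. The genes are 8 genes of bipolar cells and their precursors, the construct genes Meis1, Meis2 and GFP, and Pknox1. Points are libraries grouped by construct, M1 + M2 is the combination, and marker shapes give replicate numbers. Pknox1 lies above all 4 controls in all 6 MEIS libraries, and Vsx1, Grm6 and Trpm1 are at 0 in P5 combination 1.

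Bipolar identity genes did not pass edgeR's test in the main fit of any construct, and their values are given by library. Whether they were among the genes that other fits called for the combination is not reported here. Under MEIS1 the ON pathway had a median log2 difference of 0.15, with 9 of 15 genes above 0, against -0.02 over all genes. Under MEIS2 the median was -0.09, with 7 of 15 above 0. The OFF side under MEIS2 had a median of 0.65 against -0.02 over all genes, with 11 of 12 genes above 0 and 5 of 12 with both libraries above all controls, where 9.93% of all genes did so, and none of the 12 passed the test. Other lists lay higher too: 11 of 14 wiring genes were above 0 (median 0.32), 4 of them with both libraries above all controls, and 6 of 7 amacrine markers were above 0 (median 0.59), none of them with both libraries above all controls. The part of other cells in these values was not tested. Grm6 stood at 589 and 694 CPM in the MEIS1 libraries and 442 and 542 CPM in the MEIS2 libraries, inside the control range of 407 to 728 CPM. Vsx1 stood at 144 and 184 CPM under MEIS1, inside the control range, and at 110 and 109 CPM under MEIS2, below the lowest control at 125 CPM.

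Under the combination many ON pathway genes lay below the controls in both libraries, and so did genes of other lists. Grm6 stood at 0 and 227 CPM, Trpm1 at 0 and 23.7 CPM, Vsx1 at 0 and 36.9 CPM and Pcp2 at 10.9 and 35.1 CPM, each below the lowest control (407, 58.3, 125 and 49.6 CPM). Cabp5, at 58.6 and 101.5 CPM, overlapped the controls, and Otx2, at 1547 and 1458 CPM, lay above the highest control at 1246 CPM. Of 15 ON pathway genes tested, 12 had both combination libraries below all 4 controls and none above, where 11.6% of all genes lay below and 10.2% above. The 12 were Grm6, Trpm1, Nyx, Gpr179, Gnao1, Gnb3, Gnb5, Gng13, Rgs7, Rgs11, Pcp2 and Prkca, and the median log2 difference of the list was -2.10 against -0.05 over all genes. None of the 15 passed the test. Of 14 wiring genes 5 had both libraries below all controls and none above, with a median of -1.01, and of 12 OFF side genes 3 lay below and none above, with a median of -0.69.

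Combination 2, the library whose cells carried the markers, gave the same count on its own. In it, 12 of the 15 ON pathway genes lay below all controls, where 18.7% of all genes did. Its median log2 difference for the list, on log2(CPM + 10), was -0.86 against 0.01 over all genes. In P5 combination 1 alone the count was 13 of 15, where 40.3% of all genes did. Prkca stood at 13.6 and 215 CPM against 363 to 1495 CPM in the controls, and Isl1 at 38.1 and 452 CPM against 636 to 917 CPM. On the OFF side combination 2 had Grik1 at 1350 CPM, inside the control range of 363 to 1439 CPM, and Erbb4 at 1093 CPM, above it, and 4 of its 12 OFF side genes lay above all controls, as 24.8% of all genes did, and 3 below.

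The bipolar transcription factors lay in both directions under the combination. Crx, Lhx4, Neurod1, Neurod4, Otx2 and Prdm1 had both libraries above all controls, 6 of 21 factors, and Irx6, Isl1, Prdm8, Sebox, St18 and Vsx1 had both below, where 10.2% of all genes lay above and 11.6% below. Neurod4 stood at 1880 and 759 CPM against 499 to 668 CPM, Neurod1 at 1873 and 482 CPM against 167 to 338 CPM, and Prdm1 at 326 and 137 CPM against 16.6 to 103 CPM. These 3 genes were also lower at P5 than at P2 in the controls, which are the same P5 libraries, so the 2 comparisons share them. Of 18 ribbon synapse genes, 3 had a log2 difference above 0, 4 had both combination libraries below all controls and 2 had both above, with a median of -0.22 and no gene passing the test. Syp, which encodes synaptophysin, stood at 170 and 195 CPM against 177 to 205 CPM in the controls. The summed level of 6 Müller glia markers was 808 CPM in P5 combination 1 and 119 to 420 CPM in the controls. In the same library the 8 markers of newly made bipolar cells summed to 4854 CPM against 1455 to 2672 CPM, the 7 cone markers to 482 CPM against 170 to 342 CPM, the 7 progenitor markers to 39.5 CPM against 17.3 to 28.6 CPM, the 7 amacrine markers to 64.0 CPM against 21.8 to 56.4 CPM, and the 4 horizontal cell markers to 161 CPM against 426 to 714 CPM. In that library Tfap2a, Tfap2b, Gad1 and Slc32a1 of the amacrine list and Arr3, Opn1mw and Pde6h of the cone list were at 0. Hes1, Fgf15 and Sfrp2 of the progenitor list were also at 0. The most UMIs came from Pax6 (39), Gngt2 (289), Vim (24) and Apoe (465) in the amacrine, cone, progenitor and Müller glia lists. On the horizontal list Onecut2 had 74 UMIs and Prox1 had 43. The 10 rod markers summed to 263 CPM there, inside the control range of 193 to 777 CPM. All 8 newly made bipolar markers had a log2 difference above 0 under the combination, with a median of 1.27. Of these 8, 4 had both libraries above all controls. The part of other cells in these values was not tested.

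Against the controls as 1 group, the ON to OFF ratio averaged -0.78 ± 0.99 (n = 6) in the MEIS libraries and 0.17 ± 0.92 (n = 4) in the controls. The difference of -0.95 was within the spread of the libraries (two-sided exact permutation test, p = 0.171) and was -0.70 without P5 combination 1 (p = 0.278). By construct the difference from control was 0.06 for MEIS1 (exact permutation p = 1), -0.82 for MEIS2 (p = 0.333) and -2.10 for the combination (p = 0.133), and the adjusted p over the 3 constructs was 0.400 for the combination. The smallest p that 2 against 4 libraries allow is 0.0667.

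The ratio moved with a gene of another cell type across libraries, a relation chosen after the data were seen. Sag, the rod arrestin gene, stood in the rods of the same libraries at 4390, 6001, 3024 and 3982 CPM in controls 1 to 4, 5621 and 5349 CPM under MEIS1, 5584 and 4296 CPM under MEIS2 and 1515 and 2771 CPM under the combination. The libraries with less Sag in rods, both combination libraries and control 3, were those with the lowest ratios in cells annotated as bipolar. Over 10 libraries, Pearson's r of the log2 ratio with log2 Sag was 0.810 (permutation p = 0.00289, adjusted 0.00433 over 3 relations) and Spearman's correlation was 0.806 (permutation p = 0.00703, adjusted 0.0105). Without the 2 libraries farthest from the median of Sag, both of the combination, r was 0.536, and within the 6 MEIS libraries it was 0.909. The ON sum gave r = 0.906 (permutation p = 0.00013, adjusted 0.00039) and a Spearman's correlation of 0.879 (permutation p = 0.00178, adjusted 0.00534), and r was 0.799 without those libraries. The OFF sum gave r = 0.562 (permutation p = 0.103) and a Spearman's correlation of -0.20 (permutation p = 0.584), and r was -0.315 without those libraries, so its sign was not the same in all of these. Sag in rods moves with the construct in the combination libraries, and the part of either in the ratio was not tested.

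**Figure D5:**
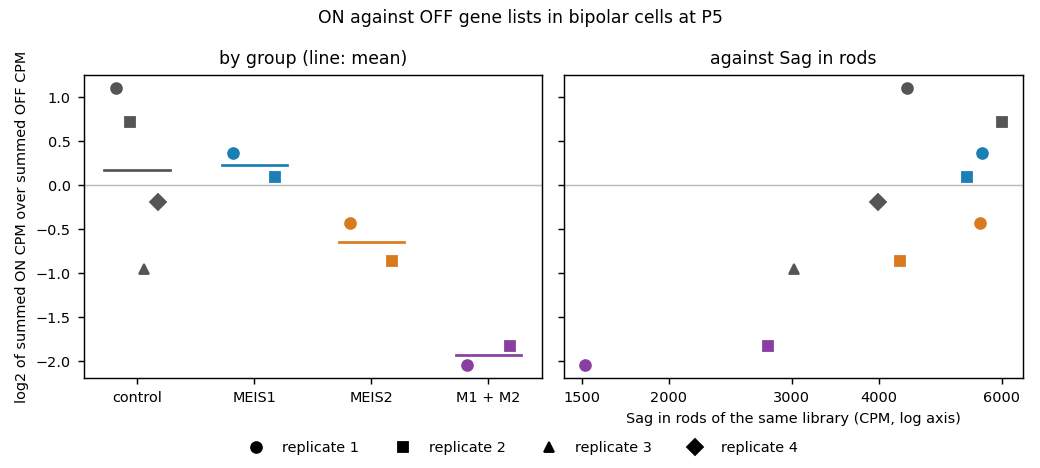
Log2 ratio of the summed CPM of 8 ON genes to that of 8 OFF genes in the cells annotated as bipolar of each P5 library. The left panel shows it by group with a line at each group's mean. The right panel shows it against the CPM of Sag in rods of the same library on a log axis. M1 + M2 is the combination and marker shapes give replicate numbers. The ratio spans 1.10 to -0.95 in the 4 control libraries and lies at -2.04 and -1.83 in the 2 combination libraries.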

How the data were processed

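The deposited table held counts of UMIs per gene and cell for 23260 genes and 79009 cells, and the authors' deposited annotation gave the library, the cell type and the depth of each cell. Per the submitters' processing notes, Cell Ranger and Seurat 5 were used with the mm10 genome, and per the labels a GFP locus had been added to it. Bipolar cells were those the annotation names so, and their counts were summed per library. The members, gene lists and tests were chosen with earlier results of these data known.

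edgeR 4.0.16 (R 4.3.3) fitted 1 mean per group to libraries with at least 20 annotated cells, using TMM factors, the filter of filterByExpr and the quasi-likelihood test, with Benjamini-Hochberg adjustment over all genes tested and a threshold of 0.05. For P5 against P2 controls this minimum left 1 P2 library, so the fit with at least 10 cells, planned as an alternative, is reported in its place. DESeq2 1.42.0 was an alternative. Shares and ratios were compared by exact permutation tests, whose smallest p is 0.00476 for 6 against 4 libraries. CPM values are a gene's counts over the UMIs of all genes, summed over the cells of a library and put on a common scale. The percent of mitochondrial UMIs per cell, as deposited by the authors, was used only to describe libraries. Doublets were scored with Scrublet (expected share 6%) and kept in the main results; it marked 110 of 4530 bipolar cells. In 7 libraries it marked under 0.5% of cells, and 1 of these held over 5000 cells, where the caller has not worked. For shares of cells with a UMI, each cell was thinned to 2000 UMIs. Cells were clustered by Leiden (leidenalg 0.10.2) at resolution 0.5 on 20 components of 2000 variable genes, with 15 neighbours from scikit-learn 1.9.0. Scrublet was run through scanpy 1.11.5. The bipolar cells held 734108 to 9630220 UMIs per library at P5 and 26830 to 409410 at P2. Limits for a count of 0 rest on 3 counts and cover counting error only. Of 4528 bipolar barcodes, 2 occurred in more than 1 library.

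Named genes were the 6 markers, Meis1, Meis2, GFP and Pknox1, all members of the lists, called genes of the construct comparisons, the 10 largest rises and falls with age among called genes at a mean log2 CPM of at least 5 whose groups do not overlap, and the 20 genes that most set bipolar cells apart. Some of these genes are not reported here. The tests were checked on simulated counts. Alternatives covered the normalization, filters, cell minimum, left-out libraries, doublets and the grouping of cells by the start of their names.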

Additional observations from a re-analysis of the deposited data

Results flagged for a closer look

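Of 26 groups of values examined for a library far from the rest, 1 stood out, which is 3.85%, and chance alone marks about 1 in 20 such groups. It was Grm6 in the library labelled P5 combination 1, whose log2(CPM + 10) of 3.32 is the value of a gene with no UMI. The other 5 MEIS libraries at P5 held 227 to 694 CPM of Grm6.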

How the results depend on the processing

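With few libraries per construct, counts of called genes changed with the processing. For any MEIS construct against control (1 gene), the count was 12 with DESeq2, 5 without a filter on low counts, and 0 without TMM factors, with controls 3 and 4 only, without the P5 libraries numbered 1, without doublets, with groups taken from the start of the cell names, and with the replicate block. Leaving out 1 library gave 0 to 44, the highest without combination 2. For MEIS1 (0 genes) it was 1 with DESeq2, without the filter, with only the groups compared and without the libraries numbered 1, and 0 in each fit that left out 1 library. For MEIS2 (2 genes) it was 9 with DESeq2, 0 to 2 without 1 library, and 0 with only the groups compared, with controls 1 and 2, with controls 3 and 4, without the libraries numbered 1, without doublets, with groups from the cell names and with the replicate block. For the combination (0 genes) it was 252 with DESeq2, 174 without the filter, 2 without TMM factors, 54 with controls 1 and 2, 175 with the replicate block, and 0 to 680 without 1 library, with 680 without combination 2 and 37 without control 3. The cause of these differences was not tested. Pknox1 kept its direction in all these fits.

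For P5 against P2 controls (1147 genes), leaving out 1 library gave 319 to 1130. The count was 1017 without doublets, 1394 with DESeq2 (693 higher and 701 lower) and 965 with the replicate block. Other fits at 20 cells were not run, since 1 P2 control reached that minimum; at 10 cells, grouping by cell names equals leaving out P2 control 1. Meis2 under MEIS1 (-0.25 on the log2 scale) turned to 0.092 with controls 3 and 4 only, and ranged from -0.53 to 0.090 without 1 library.

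The share of bipolar cells (-2.80 points) ranged from -5.52 to -0.42 points without 1 library, and was -3.28 to -0.82 under the other alternatives. With the replicate block it was -2.29. The ON to OFF difference (-0.95) ranged from -1.33 to -0.64 without 1 library and from -1.28 to -0.72 otherwise, and was -1.69 with the replicate block. The replicate block values are mean differences within the numbers 1 and 2, use controls 1 and 2 only and were not tested. Neither measure passed the test under the other alternatives or without 1 library. The labels state no pairing. All 12 same-numbered pairs of libraries correlated positively in their deviations from group means, at 0.0717 to 0.723. The P5 libraries numbered 1 also had the higher mitochondrial shares given above. The part of any batch in this was not tested. In a group of 2 libraries the deviations mirror each other, so pairs between such groups repeat 1 value and the 12 are not separate. The cell names of P5 control 1 begin with P5ctrl2. That control correlated at -0.494, -0.496 and -0.282 with the MEIS1, MEIS2 and combination libraries numbered 2. Each comparison has only 2 shared numbers, and the numbers were not taken as pairs. The clusters numbered 5 at resolution 0.3, 14 at resolution 1.0 and 10 without centring, with adjusted Rand indices of 0.491, 0.576 and 0.363 against the 8 reported. Of the 20 genes that most set bipolar cells apart, 8 were the same without P5 combination 1. Small P2 libraries, of 5 to 44 cells, limit every value at P2.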

Other observations

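The few P2 cells annotated as bipolar were unlike each other in their plasmid genes. Over the 10 P2 libraries GFP in these cells ranged from 1081 to 75071 CPM, and Meis1 in the library labelled P2 MEIS1 1 stood at 14785 CPM over 6 cells against 1879 CPM over 5 cells in P2 MEIS1 2. In the annotated cells of P2, which lacked Vsx1, Grm6 and Trpm1 and held 89.6 to 634 CPM of 7 amacrine markers, the 8 OFF genes summed to 107 to 579 CPM over the 10 libraries, with 6 to 63 UMIs in each, and the 8 ON genes to 0 to 74.5 CPM, with at most 11 UMIs. The OFF sum lay above the ON sum in all 10. Genes of both lists occur in other types: at P5, after thinning, the OFF genes Pcdh17 and Erbb4 had a UMI in 16.02% of amacrine cells and 11.8% of neurogenic cells, and the ON gene Isl1 in 13.2% of neurogenic cells. The lists were not compared by a test, and the part of other cells was not tested.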
